A study of Mus musculus with 192 samples.

Results

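Hippocampus was compared with cortex in WT mice at 4 months of age. The comparison used 20 of the 192 libraries of the series, 1 from each region of the same 10 mice, and the 2 libraries of a mouse were paired by the mouse number that ends their labels, after which mice are named here (male_466). The mice were BL6 animals without a transgene, the wild-type littermates of the 5xFAD line, 5 female and 5 male. Values from other mice were set beside the comparison: WT at 8 and 12 months (10 mice each), WT at 18 months (20 mice) and 10 5xFAD mice at 4 months, which are hemizygous for human transgenes, APP among them, with familial Alzheimer's disease mutations under the neuronal Thy1 promoter. Each library was bulk RNA of a dissected region, so it mixed neurons, glia and vessels, and fewer cells of a type could not be told apart from less RNA per cell.

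The hippocampus and the neocortex are both built around glutamatergic pyramidal neurons and local GABAergic interneurons, but they are wired differently. In the hippocampus, granule cells of the dentate gyrus receive cortical input and contact CA3 pyramidal cells, which in turn contact CA1 pyramidal cells. The neocortex stacks its excitatory neurons in layers, where the upper layers mainly connect cortical areas and the deep layers project to the thalamus, brainstem and striatum. The striatum lies under the cortex and consists mostly of GABAergic medium spiny neurons, with cholinergic interneurons among them.

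The expected counts of the 20 libraries summed to between 8606873 and 28135065 per library. Levels of single genes are given as CPM, counts scaled to the library total after TMM normalization, and sums over marker lists as TPM, which is also scaled for transcript length. The sex-linked genes matched the labelled sex in 20 of 20 libraries. Mitochondrial genes took 4.97 ± 0.614% of the counts in hippocampus and 5.82 ± 0.536% in cortex (SD, n = 10), and were lower in hippocampus in 8 of 10 mice (exact sign-flip permutation test over pairs, two-sided, p = 0.0234). The length score, the count-weighted mean log2 exon length of the protein-coding genes of a library, was higher in hippocampus in 9 of 10 mice, by 0.0462 ± 0.031 (SD, n = 10 pairs), and this difference passed the same exact permutation test (p = 0.00391).

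Markers of each structure were then summed in every library to check the labelled tissue. The 11 dentate granule cell genes summed to 59.6 to 80.7 TPM in the cortex libraries. They summed to 134 to 327 TPM in 9 hippocampus libraries and to 70.1 TPM in the hippocampus library of mouse male_466, which fell inside the cortex range. The 6 genes of neocortical layer 2/3 summed to 286 to 406 TPM in cortex, to 119 to 265 TPM in 9 hippocampus libraries and to 281 TPM in that of mouse male_466. The hippocampus labels thus held for the granule cell markers in 9 of 10 mice, and in mouse male_466 the granule cell sum lay in the cortex range and the layer 2/3 sum was the highest of the 10 hippocampus libraries.

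**Figure D1:**
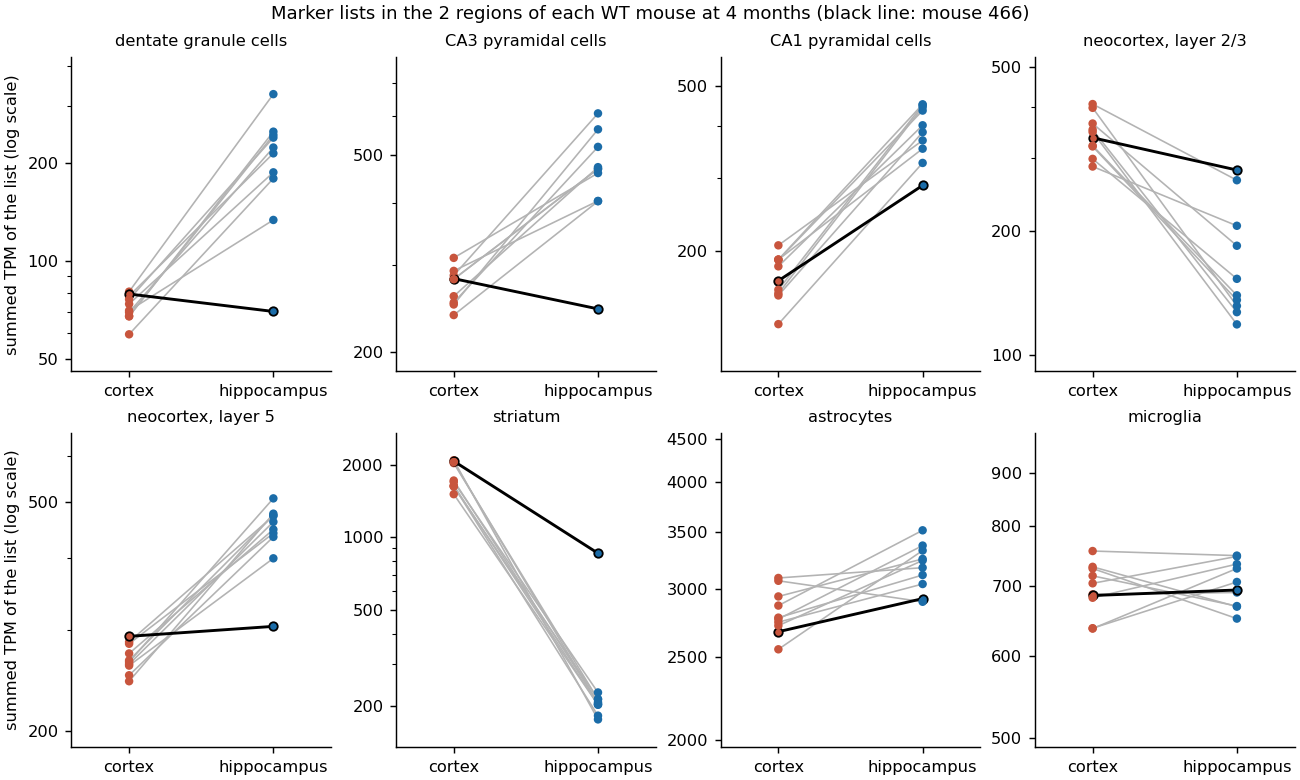
Summed TPM (log scale) of 8 marker lists in the cortex library (left, red) and the hippocampus library (right, blue) of each of the 10 mice, joined by a line, black for mouse male_466. The dentate, CA3 and layer 5 sums rise from cortex to hippocampus in 9 mice and hardly change or fall in mouse male_466, and its hippocampal striatum sum of 860 TPM lies between the other 9 hippocampus libraries (177 to 228) and the cortex libraries (1509 to 2085).

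Striatal genes were found at high levels in the libraries labelled cortex. The 14 genes of the striatum list, which are expressed by medium spiny neurons, summed to between 1509 and 2085 TPM in the 10 cortex libraries. The sum was 177 to 228 TPM in 9 hippocampus libraries and 860 TPM in the hippocampus of mouse male_466. None of the hippocampus libraries reached the cortex range. The part that striatal RNA in the cortex dissection had in the other cortex-higher genes was not tested, and values of striatal genes are given beside the gene groups they share.

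How far each library lay between the regions was placed on a scale from 0% (the mean cortex level of the other mice) to 100% (their mean hippocampus level, mouse male_466 left out of both means). The scale used the genes that differed 2-fold in the fit that left the mouse of that library out. On the hippocampus-higher genes, the hippocampus library of mouse male_466 had a median position of 20.9% over 334 genes, against 53.5% to 145% in the other 9. On the cortex-higher genes it was at 43.0%, against 82.9% to 115%. The cortex libraries lay between -6.31% and 16.0%. The hippocampus libraries of mice female_331 and male_465 came next, at 53.5% and 55.0% on the hippocampus-higher genes and at 86.9% and 82.9% on the cortex-higher genes. Dentate sums in these 2 libraries were 180 and 134 TPM, the lowest after mouse male_466. Counts are therefore given with all 10 mice, without mouse male_466, and, for the leading counts, without the 3 mice, an alternative chosen after their positions were seen.

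**Figure D2:**
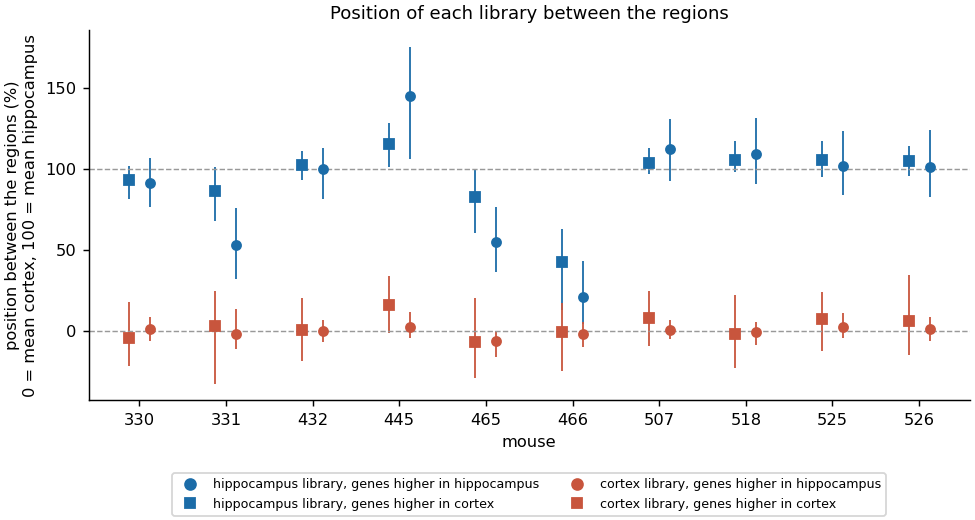
Median position (marker) and quartiles (line) of each library between the mean cortex level (0%) and the mean hippocampus level (100%), by mouse, for genes higher in hippocampus (circles) and genes higher in cortex (squares). Cortex libraries (red) lie between -6.31% and 16.0%, the hippocampus library (blue) of mouse male_466 at 20.9% and 43.0%, and those of mice female_331 and male_465 at 53.5% and 55.0% on the hippocampus-higher genes.

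Regional differences were widespread but mostly small. Of the 16044 genes tested, 7191 (44.8%) differed between the regions at a false discovery rate (FDR) below 0.05, 3526 of them (22%) higher in hippocampus and 3665 (22.8%) higher in cortex. The median absolute log2 fold change of these genes was 0.34. A difference of 2-fold or more was found for 280 genes higher in hippocampus (1.75% of the genes tested) and 368 higher in cortex (2.29%). Without mouse male_466, 334 genes were 2-fold higher in hippocampus, with 59 gained and 5 lost, and 78 cortex-higher genes were gained and 15 lost. Without mice female_331, male_465 and male_466, 429 and 500 genes did, with 270 and 347 of the genes called in all mice. Calls depended on the length score: with it as a covariate beside the mouse, 2195 genes were called, and 266 differed 2-fold in each direction. Of the hippocampus-higher 2-fold genes, 76 were lost and 62 gained, and of the cortex-higher ones 153 were lost and 51 gained. The score was itself higher in hippocampus in 9 of 10 mice, so this fit could not fully separate it from region. A call lost with the length score therefore does not show that a regional difference was absent. The balance of directions depended on the scale: of the called genes, 49.0% were higher in hippocampus on counts, against 77.0% of 7511 by limma on log2(TPM + 1), where the median over all genes was shifted by 0.15, and 44.1% once each library was centred. Directions are given on the count scale, which had a median of -0.0042. The 2 regions did not overlap in any library for 138 of the 280 hippocampus-higher and 180 of the 368 cortex-higher genes. Over all genes tested, with all 10 mice, this held for 6.23%. Without mouse male_466 the regions did not overlap for 209 and 259 of these genes, and the share over all genes was not computed.

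Known markers of granule and CA1 cells were among the 15 genes with the largest difference toward hippocampus. C1ql2 (ENSMUSG00000036907.9, chromosome 1, 120340582 to 120343174, GRCm38), which encodes a secreted synaptic protein of the mossy fiber synapses made by granule cells, had a lowest, median and highest level of 1.29, 2.74 and 5.65 CPM in cortex and 6.15, 112 and 146 CPM in hippocampus. The lowest hippocampus value was that of mouse male_466, and the other 9 lay at 50.2 CPM or above. The log2 fold change was 4.86 ± 0.36 (SE, n = 10 pairs), a 29.1-fold difference (adjusted p = 3.3e-07). Spink8 (chromosome 9, 109812280 to 109826633), a CA1 marker, had 0.493, 1.09 and 1.73 CPM in cortex and 5.89, 27.1 and 35.1 CPM in hippocampus, with no overlap between the regions. Its log2 fold change was 4.45 ± 0.13 (adjusted p = 2.88e-10), 21.8-fold higher in hippocampus.

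Other genes among the 15 with the largest hippocampus-higher difference were Lct, Slc9a4, Krt2, Lhx9, Fibcd1, Vwa3b, Tdo2, Thsd4, Lefty1, Tspan18, Cabp7 and Pkp2, with log2 fold changes from 4.34 (Lct) to 2.85 (Pkp2). Lct and Tdo2, which encode lactase and tryptophan 2,3-dioxygenase, are known markers of granule cells, and Pkp2 encodes a desmosomal plakophilin. Fibcd1, a further CA1 marker, had 11.6, 15.5 and 19.4 CPM in cortex and 42.8, 176 and 277 CPM in hippocampus, a log2 difference of 3.30 ± 0.24 (adjusted p = 3.67e-07). In all 15 genes the hippocampus library of mouse male_466 was the lowest of the 10. The regions did not overlap for 10 of the 15 with mouse male_466 and for 15 of 15 without it. These genes were chosen for a large difference in the same libraries. Over all genes tested the share was 6.23% with all 10 mice, and it was not computed without mouse male_466.

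Known genes of striatal neurons were among the 15 with the largest cortex-higher difference. Adora2a (chromosome 10, 75316877 to 75334784), an adenosine receptor gene of medium spiny neurons of the indirect pathway, had 44.2, 51.9 and 62.3 CPM in cortex and 0.583, 1.36 and 19.3 CPM in hippocampus. The value of 19.3 CPM was that of mouse male_466, and the others were at most 1.86 CPM. The log2 fold change was -4.73 ± 0.40 (adjusted p = 9.55e-07) in all mice and -5.46 without mouse male_466. Drd2, the dopamine D2 receptor gene of the same cells, had 8.66, 33 and 38 CPM in cortex and 0.445, 1.27 and 8.14 CPM in hippocampus, and its log2 fold change was -4.02 ± 0.27 (adjusted p = 1.62e-07). Penk, the enkephalin precursor, reached up to 625 CPM in cortex and 21.3 to 45.9 CPM in 9 hippocampus libraries, and stood at 277 CPM in that of mouse male_466.

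Serpina9, a serine protease inhibitor gene, and Cd4, the gene of the T cell coreceptor, had the largest log2 fold changes of the 15, -5.43 ± 0.48 and -5.04 ± 0.46 (adjusted p = 1.43e-06 and 1.81e-06). Serpina9 had 9.31 to 12.8 CPM in cortex and at most 0.159 CPM in 9 hippocampus libraries, where it summed to 8 counts. Mouse male_466 had 2.18 CPM, and without it the fitted log2 fold change was -7.36, a size that rests on those few counts. Cd4 had 16.7 to 27.3 CPM in cortex, at most 0.531 CPM in 9 hippocampus libraries and 6.08 CPM in mouse male_466, and its log2 fold change without that mouse was -6.25. The hippocampus library of mouse male_466 was the highest of the 10 for all 15 cortex-higher genes.

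A group of cholinergic genes was also cortex-higher. Chat, which encodes choline acetyltransferase, had 6.26, 8.85 and 11.8 CPM in cortex, at most 0.782 CPM in 9 hippocampus libraries and 3.33 CPM in that of mouse male_466 (log2 fold change -4.69 ± 0.52, adjusted p = 8.92e-06; -5.98 without mouse male_466). Slc18a3, the vesicular acetylcholine transporter gene, lies inside Chat on the same strand (chromosome 14, 32462438 to 32464850, within 32408203 to 32465989), so reads of the 2 genes may have been divided between them; its log2 fold change was -3.82 ± 0.38 (adjusted p = 4.19e-06; -4.44 without mouse male_466). Slc5a7, the choline transporter gene, which lies elsewhere, had 7.13, 10.5 and 14.7 CPM in cortex and 0.459, 0.804 and 3.78 CPM in hippocampus (-3.21 ± 0.25, adjusted p = 5.5e-07). Other genes among the 15 were Sh3rf2, Ptprv, Scn4b, Syndig1l and Slc35d3, at -4.16 to -3.22. The log2 fold change of Sh3rf2 was -4.97 without mouse male_466.

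All 14 striatum genes were called and all differed 2-fold, with a median log2 fold change of -3.15, against -0.0042 over all genes tested. Besides Adora2a, Drd2 and Penk, the dopamine D1 receptor gene Drd1 was lower in hippocampus by -2.99 ± 0.19 on the log2 scale (adjusted p = 1.29e-07), and Ppp1r1b, which encodes the dopamine-regulated phosphatase inhibitor DARPP-32, by -2.88 ± 0.17 (adjusted p = 6.69e-08). In the hippocampus library of mouse male_466, Drd1 had 41.5 CPM, and its level in the cortex libraries was 77.9 to 108 CPM. The list made up 14 of the 368 cortex-higher 2-fold genes, and 354 remained without it. Genes with striatal expression that are not on the list, such as Kcnh4 (below), stayed among the 354.

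**Figure D3:**
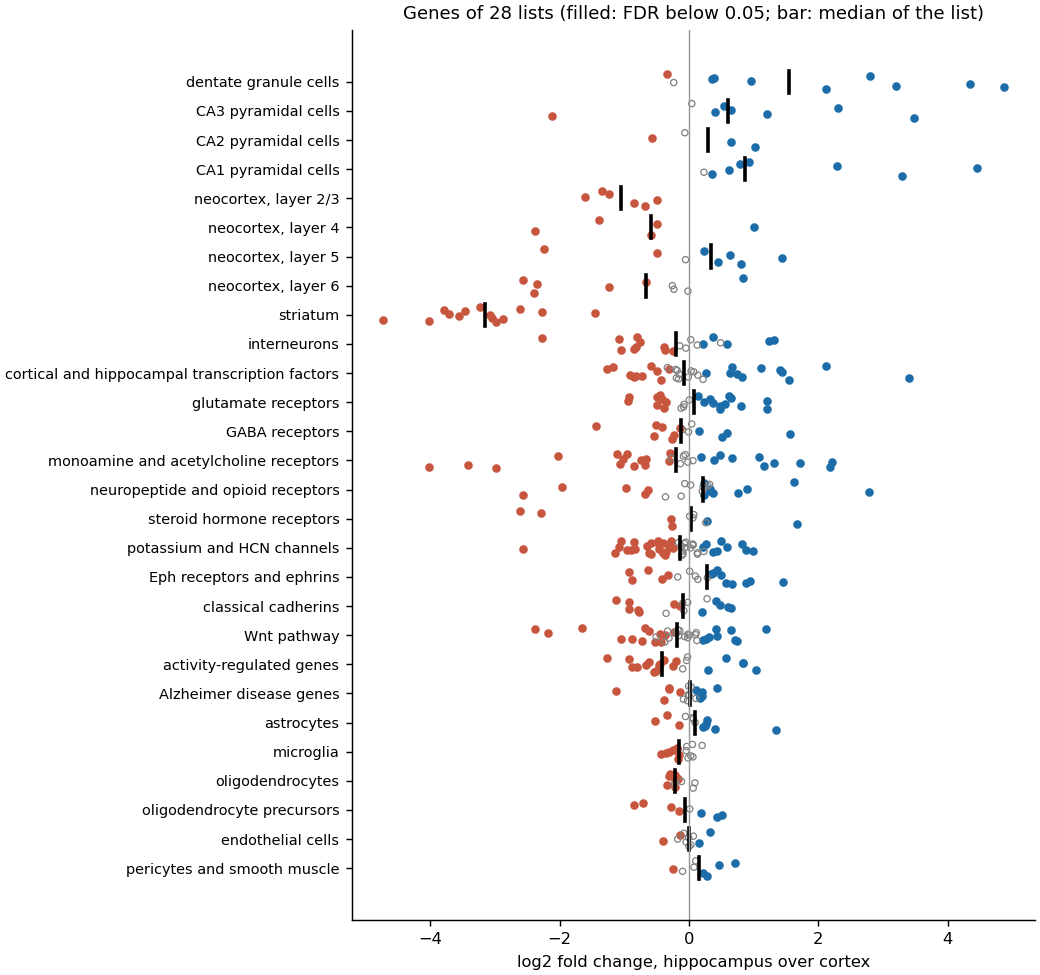
Log2 fold change (hippocampus over cortex) of each tested gene of 28 lists, filled blue where higher in hippocampus and red where higher in cortex at an FDR below 0.05, with the median of each list as a black bar. The striatum list lies farthest left (median -3.15) and the dentate list farthest right (median 1.54), while the glial and vascular lists lie near 0.

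Lists of hippocampal cell types were mostly hippocampus-higher. The counts of called members are to be read against the 22% and 22.8% of all genes called in each direction. Of 10 dentate genes tested, 8 were higher in hippocampus and 1, Sema5b, lower, with a median of 1.54. Prox1, the transcription factor that fixes granule cell identity, had 10.5, 13.2 and 18.7 CPM in cortex and 14.5, 68.6 and 114 CPM in hippocampus, where 14.5 CPM was the value of mouse male_466 (log2 fold change 2.12 ± 0.21, adjusted p = 4.27e-06). Il16, a cytokine gene with a neuronal form, differed by 2.80 ± 0.27 (adjusted p = 2.9e-06). The smallest called members were Stxbp6 and Npnt, at 0.36 and 0.39, and neither was called once the length score was added (adjusted p = 0.22 and 0.82). Without mouse male_466 the median of the list was 2.32 over 11 genes, among them Dsp, which was tested only without this mouse (below). The 2 medians are thus over different genes, and the median over the 10 shared ones was not computed.

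Which genes entered the test depended on the mice included. The count filter asks for enough counts in about as many libraries as a region has. With all mice, 16044 genes were tested, against 15952 without mouse male_466. Leaving out mouse female_507 instead gave 15948 genes, and leaving out mouse male_525 gave 16128. A shift of this size was thus not particular to mouse male_466. For mouse male_466, 121 genes passed the filter only with that mouse and 29 only without it. Of these 29 genes, 16 were 2-fold higher in hippocampus in the fit without mouse male_466 and 0 were 2-fold higher in cortex. The 2 genes below were chosen after their values were seen and passed through the other hippocampus libraries. Their direction was thus set by the filter and is given as a description. Dsp, which encodes desmoplakin and marks granule cells, had 22 to 246 counts in 9 hippocampus libraries, 4 in that of mouse male_466 and 0 to 5 in the cortex libraries. Its fitted log2 fold change without mouse male_466 was 5.71 ± 0.28 (SE, n = 9 pairs). Rtl3 had 19 to 122 counts in the 9 libraries, 4 in that of mouse male_466 and 0 to 3 in cortex. Its fitted log2 fold change was 6.78 ± 0.38 (SE). Their p-values are left out, since the filter and the choice had used the same values.

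CA1 genes were higher in hippocampus for 7 of 8 tested (5 with the length score) and lower for 0, with a median log2 fold change of 0.86. Without mouse male_466 all 8 were called. Gpr161, a ciliary receptor gene, had 1.55, 2.0 and 2.30 CPM in cortex and 3.44, 10.1 and 14.8 CPM in hippocampus (2.29 ± 0.16, adjusted p = 2.4e-07). Mpped1 had 161 to 213 CPM in cortex and 242 to 353 CPM in hippocampus (0.62 ± 0.05, adjusted p = 1.23e-06). The CA1 sum of mouse male_466 was the lowest of the 10 hippocampus libraries, at 288 TPM against 327 TPM or more, but this did not hold for each member. Its hippocampus library had 283 CPM of Mpped1, within the range of the other 9, and 43.6 CPM of Ccn3, the highest of the 10. Ccn3, which encodes a matricellular protein, differed by 0.93 ± 0.13 (adjusted p = 7.15e-05).

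CA3 genes were higher in hippocampus for 6 of 8 tested (4 with the length score), with a median of 0.60. Homer3, a postsynaptic scaffold gene, had 5.80, 7.16 and 9.11 CPM in cortex and 7.68, 42.7 and 60.0 CPM in hippocampus (2.31 ± 0.26, adjusted p = 1e-05), and Iyd, an iodotyrosine deiodinase gene, differed by 3.48 ± 0.42 (adjusted p = 1.95e-05). Coch, which encodes cochlin, went the other way, with 44.2, 51.9 and 58.6 CPM in cortex and 5.2, 11.2 and 31.6 CPM in hippocampus (-2.11 ± 0.21, adjusted p = 4.88e-06). Of the 4 CA2 genes tested, 2 were higher in hippocampus and 1, the AMPA receptor auxiliary subunit gene Cacng5, was lower (-0.57 ± 0.20, adjusted p = 0.0349), a call lost without any 1 of mice female_330, female_331, female_432, male_466, male_525 and male_526 (adjusted p = 0.0514 to 0.0704). Rgs14, a regulator of G protein signaling that limits plasticity in CA2, was higher by 0.65 ± 0.09 (adjusted p = 6.5e-05) and Amigo2 by 1.02 ± 0.24 (adjusted p = 0.00372; 0.25 with the length score).

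Genes of the cortical layers were not uniformly cortex-higher. All 6 layer 2/3 genes were higher in cortex, with a median of -1.04. Lamp5, a membrane protein gene of upper-layer neurons and neurogliaform cells, had 215, 246 and 308 CPM in cortex and 51.4, 64.6 and 176 CPM in hippocampus (-1.61 ± 0.16, adjusted p = 4.15e-06). The highest hippocampus value was that of mouse male_466. Stard8 differed by -1.23 ± 0.10 (adjusted p = 6.98e-07). With the length score, 4 of the 6 calls remained, and those of Cux2 and Otof did not (adjusted p = 0.18 and 0.091). Of 5 layer 4 genes, 4 were cortex-higher (2 with the length score). Rspo1, which encodes a secreted Wnt agonist, led them (-2.38 ± 0.31, adjusted p = 4.56e-05).

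Layer 6 genes were cortex-higher for 5 of 9 tested, with a median of -0.67. Foxp2, a transcription factor gene of corticothalamic cells, had 21.4, 27.2 and 30.4 CPM in cortex and 1.79, 3.96 and 17.2 CPM in hippocampus (-2.40 ± 0.29, adjusted p = 2.16e-05). Foxp2 is also expressed in the striatum. Syt6, a synaptotagmin gene, differed by -2.35 ± 0.09 (adjusted p = 2.1e-09). Nr4a2, a nuclear receptor gene of the deepest layer and the claustrum, was higher in hippocampus (0.83 ± 0.12, adjusted p = 0.000113).

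Layer 5 genes lay on the hippocampus side, with 5 of 8 higher in hippocampus, 2 lower and a median of 0.34. Calls fell to 3 and 1 with the length score. Crym, which encodes a thyroid hormone-binding crystallin, had 53.6, 79.3 and 92.9 CPM in cortex and 116, 215 and 254 CPM in hippocampus (1.43 ± 0.12, adjusted p = 8.78e-07). Fezf2, the transcription factor that specifies subcerebral projection neurons, differed by 0.80 ± 0.11 (adjusted p = 6.5e-05; 0.06 with the length score), with 24.7 to 39.6 CPM in cortex and 42.5 to 82.3 CPM in hippocampus. Myl4, a myosin light chain gene, was lower in hippocampus (-2.24 ± 0.29, adjusted p = 4.21e-05).

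Transcription factors of the pallium differed in each direction. Of 32 tested, 11 were higher in hippocampus and 10 in cortex (10 and 4 with the length score). Zbtb20, which represses cortical layer genes in developing hippocampal neurons, had 58.5, 70.7 and 77.5 CPM in cortex and 89.3, 227 and 358 CPM in hippocampus, with no overlap (1.55 ± 0.18, adjusted p = 1.57e-05). The LIM factor gene Lhx9 differed by 3.40 ± 0.31 (adjusted p = 2.14e-06) and the bHLH gene Neurod6, active in maturing pyramidal neurons, by 1.43 ± 0.16 (adjusted p = 8.8e-06). Among the cortex-higher factors, Pou3f2, an upper-layer POU factor, had 12.4 to 16.9 CPM in cortex and 4.37 to 11.1 CPM in hippocampus (-1.18 ± 0.14, adjusted p = 2.3e-05), and Meis2 differed by -1.27 ± 0.08 (adjusted p = 7.11e-08). Meis2 and Foxp1 (-0.73 ± 0.06, adjusted p = 1.01e-06) are also striatal. Tbr1 and Mef2c, which act in cortical projection neurons, were at -0.82 and -0.92, and neither was called with the length score (adjusted p = 0.22 and 0.18); Tbr1 was not called without the block for the mouse either (adjusted p = 0.1).

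Glutamate receptor genes differed in each direction: 12 of 24 tested were higher in hippocampus and 8 in cortex, with a median of 0.07. Gria1, the AMPA receptor subunit whose synaptic delivery accompanies long-term potentiation, had 253, 264 and 281 CPM in cortex and 350, 659 and 907 CPM in hippocampus (1.2 ± 0.12, adjusted p = 3.13e-06). Mouse male_466 had the 350 CPM, and all hippocampus libraries lay above all cortex libraries. The kainate receptor gene Grik4, a CA3 marker, differed by 1.2 ± 0.11 (adjusted p = 2.9e-06) and the NMDA receptor gene Grin2a by 0.80 ± 0.09 (adjusted p = 8.8e-06), while the obligatory NMDA subunit gene Grin1 was not called (-0.08 ± 0.05, adjusted p = 0.231). The kainate subunit gene Grik5 and the presynaptic metabotropic receptor gene Grm4 were cortex-higher, at -0.94 ± 0.10 and -0.93 ± 0.07 (adjusted p = 9.72e-06 and 4.6e-07). After adding the length score, 6 and 5 of the calls remained.

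GABA receptor genes were higher in hippocampus for 4 of 14 and in cortex for 7 of 14 (3 and 4 with the length score). Gabra5, whose product forms extrasynaptic receptors on hippocampal pyramidal cells, had 44.5, 55.2 and 75.1 CPM in cortex and 77.2, 172 and 227 CPM in hippocampus (1.57 ± 0.16, adjusted p = 5.98e-06). Gabrd, the subunit of tonic inhibition in granule cells, thalamus and cortex, went the other way, with 121, 136 and 167 CPM in cortex and 36.9, 46.7 and 86.7 CPM in hippocampus (-1.43 ± 0.10, adjusted p = 2.3e-07). The regions did not overlap for either gene. Gabrb1 and Gabra2 were higher in hippocampus by 0.58 ± 0.04 and 0.50 ± 0.05 (adjusted p = 2.27e-07 and 8.89e-06).

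**Figure D4:**
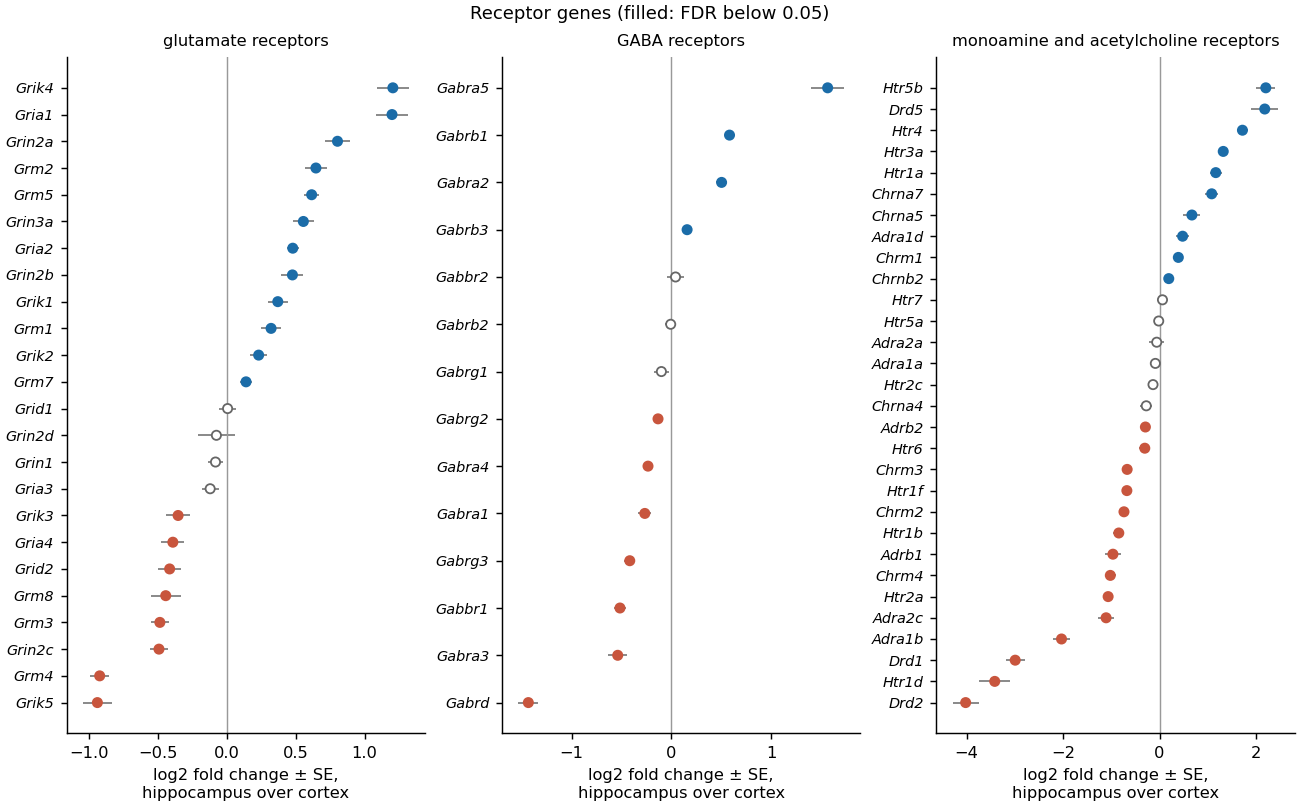
Log2 fold change (hippocampus over cortex) with its SE for the tested glutamate, GABA, and monoamine and acetylcholine receptor genes, sorted within each panel and filled where called at an FDR below 0.05. Gria1 and Grik4 (1.2 each), Gabra5 (1.57), Htr5b (2.20) and Drd5 (2.18) lie farthest toward hippocampus, and Grik5 (-0.94), Gabrd (-1.43) and Drd2 (-4.02) farthest toward cortex.

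Receptors for monoamines and acetylcholine showed large differences in each direction. Of 30 tested, 10 were higher in hippocampus, 6 of them 2-fold, and 14 were higher in cortex, 7 of them 2-fold. Calls fell to 5 and 9 with the length score. Toward hippocampus lay Drd5, the D5 dopamine receptor gene (2.18 ± 0.28, adjusted p = 3.69e-05), Htr5b (2.20 ± 0.20, adjusted p = 1.81e-06), Htr4 (1.72 ± 0.12, adjusted p = 2.44e-07) and Htr1a, the inhibitory serotonin 1A receptor gene, with 10.2, 15 and 21.8 CPM in cortex and 18.7, 36.5 and 44.0 CPM in hippocampus (1.17 ± 0.12, adjusted p = 4.93e-06). Toward cortex lay, beside Drd1 and Drd2, the serotonin receptor genes Htr2a (-1.06 ± 0.07, adjusted p = 1.09e-07), which marks deep-layer pyramidal cells, and Htr1d (-3.41 ± 0.32, adjusted p = 2.13e-06), and the adrenergic receptor gene Adra1b (-2.03 ± 0.19, adjusted p = 2e-06). Htr2a had 27.8 to 39.0 CPM in cortex and 12.5 to 21.7 CPM in hippocampus. The dopamine receptor genes thus split, Drd5 to the hippocampus and Drd1 and Drd2 to the cortex libraries with their striatal markers.

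Among 22 neuropeptide and opioid receptor genes, 9 were higher in hippocampus and 5 in cortex, the latter near the share of all genes. Calls fell to 3 and 4 with the length score. Npy2r, the presynaptic neuropeptide Y receptor gene, had 3.64, 6.58 and 8.35 CPM in cortex and 14.1, 53.0 and 86.7 CPM in hippocampus (2.78 ± 0.17, adjusted p = 8.95e-08). Tacr1, the substance P receptor gene, was cortex-higher (-1.96 ± 0.16, adjusted p = 7.95e-07), as was Oprk1, the kappa opioid receptor gene (-2.57 ± 0.27, adjusted p = 5.78e-06). Nr3c2, the mineralocorticoid receptor gene, led the 10 steroid hormone receptor genes toward hippocampus, with 31.9, 35.3 and 38.3 CPM in cortex and 41.7, 129 and 196 CPM in hippocampus (1.67 ± 0.17, adjusted p = 6.05e-06). The glucocorticoid receptor gene Nr3c1 was lower there by a small amount (-0.26 ± 0.07, adjusted p = 0.00657; 0.22 with the length score). The retinoid receptor genes Rxrg (-2.30 ± 0.11, adjusted p = 1.63e-08) and Rarb (-2.61 ± 0.16, adjusted p = 7.11e-08), of which Rarb is on the striatum list, were cortex-higher.

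Potassium and HCN channel genes lay more often on the cortex side: 22 of 46 tested were higher in cortex and 9 in hippocampus, with a median of -0.14. Kcnh4, a channel gene strongly expressed in striatum, differed most (-2.56 ± 0.24, adjusted p = 2.66e-06). The beta subunit gene Kcnab3 had 68.4, 81.4 and 96.8 CPM in cortex and 29.9, 35.0 and 57.6 CPM in hippocampus (-1.14 ± 0.08, adjusted p = 1.62e-07). Toward hippocampus were the modifier subunit gene Kcng1 (0.99 ± 0.06, adjusted p = 6.69e-08) and the small-conductance channel gene Kcnn2 (0.82 ± 0.09, adjusted p = 6.75e-06). With the length score, 14 and 5 calls remained.

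Genes of axon guidance and adhesion differed in each direction. With the length score, 3 and 3 calls remained of the Eph receptor and ephrin list, 1 and 5 of the cadherins and 4 and 4 of the Wnt pathway. Of 19 Eph receptor and ephrin genes, 9 were higher in hippocampus and 5 in cortex, with a median of 0.28. Epha6 had 13.4, 19.5 and 21.8 CPM in cortex and 28.9, 54.0 and 78.9 CPM in hippocampus (1.46 ± 0.11, adjusted p = 5.25e-07), and Epha4 differed by 0.88 ± 0.10 (adjusted p = 1.1e-05). Efnb2, a ligand gene, was cortex-higher (-0.64). Of 17 classical cadherin genes, 5 were higher in hippocampus, among them Cdh8 (0.64 ± 0.07, adjusted p = 6.39e-06), and 7 in cortex, among them Cdh22 (-1.13 ± 0.13, adjusted p = 1.21e-05). In the Wnt pathway, 9 of 38 were higher in hippocampus, near the share of all genes, and 13 in cortex. The ligand gene Wnt7b (0.71 ± 0.05, adjusted p = 3.5e-07) and the secreted agonist gene Rspo2 (1.19 ± 0.10, adjusted p = 1.35e-06) were hippocampus-higher, and the transcription factor gene Tcf7 (-2.19 ± 0.19, adjusted p = 1.43e-06) and the agonist gene Rspo1 cortex-higher.

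Activity-regulated genes, which neurons induce when they fire, were mostly cortex-higher: 14 of 22 against 5, with a median of -0.42. Egr1 had 429 to 909 CPM in cortex and 168 to 674 CPM in hippocampus, with overlap (-0.80 ± 0.15, adjusted p = 0.000683), and Arc, whose product acts at the synapse, differed by -0.47 ± 0.11 (adjusted p = 0.00376; 0.086 without the block for the mouse). Nptx2, a secreted synaptic pentraxin gene, differed by -1.26 ± 0.14 (adjusted p = 8.46e-06). Jun (1.03 ± 0.09, adjusted p = 9.53e-07), Nr4a3 (0.83 ± 0.13, adjusted p = 0.000147) and Bdnf, a neurotrophin gene (0.57 ± 0.06, adjusted p = 4.6e-06), were higher in hippocampus. With the length score, 5 of the cortex-higher and 4 of the hippocampus-higher calls remained.

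Interneuron genes were higher in cortex for 10 of 20 and in hippocampus for 5 (5 and 2 with the length score). The vesicular GABA transporter gene Slc32a1, shared by all GABAergic neurons and thus also by striatal ones, had 40.9, 46.1 and 60.3 CPM in cortex and 17.7, 22.9 and 31.2 CPM in hippocampus (-1.05 ± 0.05, adjusted p = 1.63e-08). Pvalb, the marker of fast-spiking cells, differed by -0.85 ± 0.10 (adjusted p = 2.48e-05; 0.053 with the length score), while Sst, the somatostatin gene, was not called (-0.05 ± 0.09, adjusted p = 0.689). Nos1, the neuronal nitric oxide synthase gene, was higher in hippocampus, with 28.9, 36.7 and 38.5 CPM in cortex and 70.1, 82.4 and 105 CPM in hippocampus (1.24 ± 0.06, adjusted p = 1.63e-08). Of 12 genes of adult neurogenesis, 3 were higher in hippocampus and 2 in cortex, shares near those of all genes. Neurod1 differed most (1.05 ± 0.07, adjusted p = 2.22e-07), and Dcx, the marker of immature neurons, was not called (-0.25 ± 0.11, adjusted p = 0.0783).

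Glial and vascular lists differed little. Of 13 astrocyte genes, 6 were higher in hippocampus and 3 in cortex (3 and 1 with the length score). Gfap, the intermediate filament gene of astrocytes, was the only one to differ 2-fold, with 122, 146 and 180 CPM in cortex and 172, 403 and 558 CPM in hippocampus, where 172 CPM was the value of mouse male_466 (1.34 ± 0.12, adjusted p = 1.54e-06). The water channel gene Aqp4 was higher by 0.41 ± 0.05 (adjusted p = 1.57e-05) and S100b lower by -0.52 ± 0.05 (adjusted p = 2.9e-06). Microglial genes were cortex-higher for 8 of 15 and hippocampus-higher for 0, with a median of -0.15, but 0 of these calls remained with the length score. By limma on log2(TPM + 1), 4 were hippocampus-higher and 1 cortex-higher. Of the 15, 13 kept their sign in WT mice at 8 months, 12 at 12 months and 5 at 18 months, and 4 in the 5xFAD mice. Oligodendrocyte genes were cortex-higher for 8 of 12 with a median of -0.21, and 1 call, that of Mal (-0.29 ± 0.06, adjusted p = 0.00131), remained with the length score. On the TPM scale 0 of the 12 were cortex-higher and 1 was hippocampus-higher. The pericyte and smooth muscle list had 4 of 8 genes higher in hippocampus and 1 in cortex, and 0 remained.

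Genes known from Alzheimer's disease were mostly close in the 2 regions. Of 20 tested, 8 were higher in hippocampus and 5 in cortex (2 and 3 with the length score), and 1 differed 2-fold. That gene was Mme, which encodes the amyloid-β-degrading enzyme neprilysin, with 10.4, 11.6 and 14.6 CPM in cortex and 3.42, 5.58 and 6.52 CPM in hippocampus (-1.13 ± 0.09, adjusted p = 6.88e-07). The endogenous App gene had log2 fold change -0.02 ± 0.04 and Apoe -0.01 ± 0.05, and neither was called (adjusted p = 0.644 and 0.925). Endogenous Thy1, whose promoter drives the transgenes of the 5xFAD line, was lower in hippocampus by -0.31 ± 0.05 (adjusted p = 0.000255; 0.074 with the length score).

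Whether the regional difference differed between the sexes was tested as a region by sex term over the 5 female and 5 male mice. It was called for 0 of 16044 genes (0%) by edgeR, with 485 at an unadjusted p below 0.05, and for 0 genes in the other 4 edgeR fits of this term, with 411 to 622 at an unadjusted p below 0.05. In simulated data of the same design, 139 of 198 genes given a difference of 1 on the log2 scale were recovered. The simulation drew genes independently and held no library lying between the regions, so this rate need not hold for these mice. The lowest p belonged to Fam19a1, which encodes a secreted TAFA protein, with log2 fold changes of 0.12 in female and 0.64 in male mice (adjusted p = 1). The next 4 were Gm14391, Sema6c, Plekhh1 and Gm9774.

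In mice of other groups the large differences kept their direction. Among the 280 hippocampus-higher 2-fold genes that could be tested there, 258 of 259 had the same sign in 8-month, 269 of 270 in 12-month and 267 of 271 in 18-month WT mice and 276 of 277 in the 5xFAD mice. Among the 368 cortex-higher genes, the shares with the same sign were 93.5%, 99.7%, 100% and 99.1%. The 30 genes with the largest differences kept their sign in all 4 groups. Over the called genes tested in each group, 7080 to 7170 in number, the share with the same sign was 74.1% in the 8-month, 87.3% in the 12-month and 88.5% in the 18-month WT mice and 97.6% in the 5xFAD mice. The length score differed between the regions by 0.112 ± 0.0776 (SD, n = 10 pairs) at 8 months, more than the 0.0462 at 4 months, and its part in the lower share was not tested. The striatum list had medians of -3.31, -3.23 and -2.86 in WT at 8, 12 and 18 months and of -2.95 in 5xFAD mice, so striatal genes were cortex-higher in each of these groups.

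The regional difference of 18-month WT mice was tested against that of 4-month mice with a region by age term. It was called for 1487 of 16160 genes (9.2%), 701 of them with a larger hippocampus over cortex ratio at 18 months and the rest with a smaller one. The lowest adjusted p belonged to Ppm1l, a protein phosphatase gene, with a log2 fold change of -0.05 at 4 months and of -0.82 at 18 months, a change of -0.78 ± 0.08 (adjusted p = 1.17e-06). Prrt1, whose product is associated with AMPA receptors, moved the other way, from -0.08 to 0.85 (0.93 ± 0.11, adjusted p = 1.25e-05), and the cilium gene Bbs1 from 0.39 to -0.36 (-0.75 ± 0.10, adjusted p = 2.6e-05). Plcxd2 (-1.28 ± 0.16) and 1700020I14Rik (-0.61 ± 0.07) completed the 5 genes with the lowest p. At the ages between, Ppm1l had 0.40 at 8 months and -0.47 at 12 months, so its values did not move in 1 direction with age. The 18-month group had 15 female and 5 male mice, against 5 and 5 at 4 months. Age cannot be told apart in this term from the processing of an age group, and the part of the sex ratio was not tested.

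**Figure D5:**
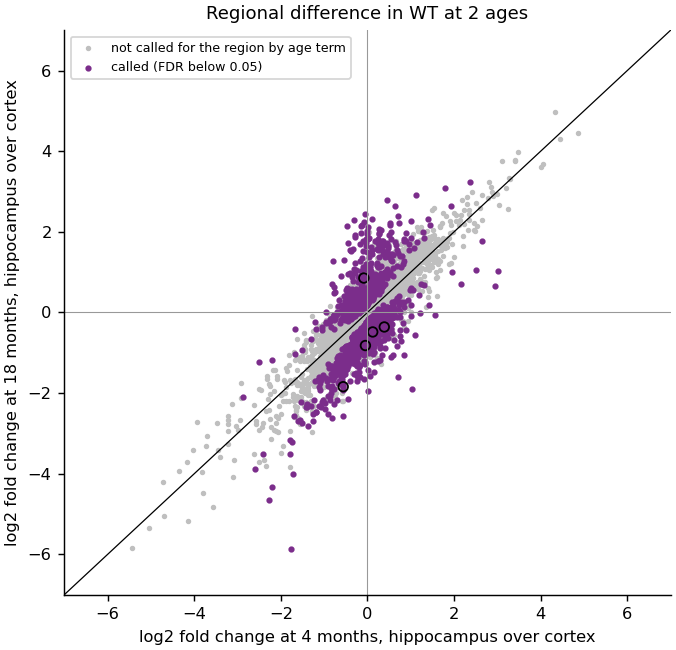
Log2 fold change (hippocampus over cortex) in WT mice at 18 months against that at 4 months for 15568 genes, with 1441 genes called for the region by age term in purple and the 5 with the lowest p circled. The genes with the largest differences lie near the line of equal values, and the circled genes lie away from it (Ppm1l at -0.05 and -0.82).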

How the data were processed

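Mice were perfused and regions dissected. RNA was extracted with a QIAGEN kit and sequenced as bulk RNA after a modified SMART-seq2 preparation with Nextera libraries. The authors mapped reads to mm10 with STAR 2.5.1b and deposited an expected count and a TPM value per gene from RSEM 1.2.22, neither normalized further. All 55449 identifiers matched GENCODE M21 on GRCm38. Groups, sex, age and mouse number came from the sample titles. Expected counts were rounded to whole numbers.

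Genes were kept by filterByExpr with region as the group (minimum count 10, minimum total 15). Region was tested in R 4.3.3 with edgeR 4.0.16 (TMM, quasi-likelihood F test) with the mouse as a block, at a Benjamini-Hochberg FDR below 0.05 over all genes tested. Adjusted p-values come from this test unless the text names the length score, the fit without the block or without a mouse, or the region by sex or age term, each fitted in the same way. Both libraries of a number come from 1 mouse; their deviations from the region means correlated at 0.0731 to 0.43. No pair of libraries was identical. Depth limits genes with few counts.

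The genes named are members of the lists, the 15 with the largest change in each direction (mean CPM of 5 or more in the higher region, the same direction in at least 9 of 10 mice) and the 5 with the lowest p for each term. Some genes that this rule names are not reported here. The lists and members were chosen with earlier results of these data known. In simulated data with 200 genes changed by 1 on the log2 scale, 181 of 197 tested were recovered for region, with 8 other calls, and 172 of 198 for region by age. No simulated library lay between the regions as that of mouse male_466 did. Alternatives were no block, RLE factors, DESeq2 1.42.0, other filters, limma 3.58.1 on log2(TPM + 1), each mouse left out, each sex alone and the length score. The centred TPM fit, the positions and the fit without 3 mice were added after seeing the data. Figures were drawn with matplotlib 3.10.9.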

Additional observations from a re-analysis of the deposited data

Results flagged for a closer look

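Of 94 groups of 10 libraries examined, 20 held a library that stood apart from the other 9 by Dixon's criterion. For a single group, chance meets it about 1 time in 20. The groups shared libraries and genes, so the number flagged cannot be set against that rate. Of the 20, 16 concerned the hippocampus of mouse male_466, which was singled out before these groups were examined. Its summed TPM was the highest for the striatum (860), hypothalamus (75.8) and amygdala and olfactory lists (264) and the lowest for the layer 5 list (304.3). It had the highest hippocampal CPM of Serpina9 (2.18), Cd4 (6.08), Adora2a (19.3), Chat (3.33), Sh3rf2 (4.55), Drd2 (8.14), Slc18a3 (2.98), Ptprv (1.49), Penk (277), Scn4b (105), Syndig1l (10.4) and Slc35d3 (6.69). These genes were chosen from a fit that held this library.

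In cortex, mouse female_331 had the highest choroid plexus sum (2762 TPM) and the lowest length score (12.08, the others at 12.11 or more). Mouse male_525 had the highest Lhx9 (3.92 CPM) and mouse female_330 the highest Ptprv (7.27 CPM).

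The regional difference differed between 18 and 4 months for 1487 genes, with changes of -0.78 for Ppm1l, -0.61 for 1700020I14Rik, 0.93 for Prrt1, -1.28 for Plcxd2 and -0.75 for Bbs1 on the log2 scale.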

How the results depend on the processing

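With the block for the mouse left out, 6862 genes were called, 300 of them 2-fold higher in hippocampus, and the pairing changed no count by more than 1.5 times. With RLE factors or DESeq2 the counts stayed within that range. In the 5 female mice alone 5745 genes were called and in the 5 male mice alone 2378. Mice male_465 and male_466, with low hippocampus positions, were in the male group and mouse female_331 in the female group. The part of these mice in the 2 counts was not tested. With the length score 2195 genes were called. Without a filter on low counts 489 and 666 genes differed 2-fold in hippocampus and cortex. By limma on log2(TPM + 1), 147 were cortex-higher by 2-fold, and with each library centred 117 and 207 differed. Without mice female_331, male_465 and male_466, 429 differed toward hippocampus. In CPM, the median ratio of hippocampus to cortex of the CA1 sum was 1.85 against 2.33 in TPM, and that of the layer 5 sum 1.43 against 1.70. With the length score, the log2 fold change of Hbb-bs was 0.0038 and that of Hba-a1 0.0080, reversed in direction. Of 117 named genes called, 115 kept their direction in every alternative and 98 were called in every one. The causes of these shifts were not tested. Leaving out 1 mouse at a time gave 6356 to 7771 called genes, 265 to 334 2-fold higher in hippocampus and at least 344 in cortex, the most of each without mouse male_466. The term for age was called for 1322 genes without mouse male_466 and for 1806 with the length score.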

Other observations

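Choroid plexus genes varied widely between mice in both regions. The list summed to 5934, 4667 and 2597 TPM in the hippocampus libraries of mice female_507, female_330 and male_526 and to 2762 and 1140 TPM in the cortex libraries of mice female_331 and male_526, against 101 to 470 TPM in the other 15. Ttr, the transthyretin gene of this epithelium, ranged from 3.82 to 3568 CPM in hippocampus and from 6.35 to 2075 CPM in cortex and was not called (log2 fold change 1.89 ± 0.97, adjusted p = 0.128 by edgeR). Kl, which encodes the aging-related protein klotho, was called (2.32 ± 0.52, adjusted p = 0.00248).

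Hemoglobin transcripts were lower in hippocampus. The 4 globin genes Hba-a1, Hba-a2, Hbb-bs and Hbb-bt, pairs of near-identical copies whose reads may be shared between them, had log2 fold changes between -0.54 and -0.46, and none was called after adding the length score or without the block for the mouse.

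Markers of other subcortical structures were also examined. Of the amygdala and olfactory list, 5 of 8 genes were cortex-higher, and of the hypothalamus list 3 of 5, with summed levels of 16.3 to 169 TPM in cortex and 11.6 to 31.4 TPM in 9 hippocampus libraries. The thalamus list had 4 of 12 cortex-higher genes and 1 hippocampus-higher gene. Its summed level had a median of 156 TPM in hippocampus and 133 TPM in cortex and was higher in cortex in 5 of 10 mice.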
